A study of Mus musculus with 2 samples.

Results

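The nuclear genes of respiratory complexes II, III and IV, of the ATP synthase (complex V) and of cytochrome c were examined in the gastrocnemius, the large calf muscle of the mouse. Members were the protein-coding genes whose symbols begin with Sdh followed by a, b, c or d, with Uqc, with Cox and a digit, or with Atp5, together with Cyc1 and Cycs. This gave 66 of the 55536 Ensembl genes in the gene table, carrying 65 symbols. Of the 66 genes, 47 encode structural subunits, 16 encode assembly factors and 3 have other roles (Cycs, Cox7a2l and Atp5s). The tissue came from 2 male mice of strain B6CASTF1/J, an F1 cross of C57BL/6 and CAST, aged 36 days, and each library was made from 300 ng of total RNA. The animals form a single group (replicates 1 and 2, n = 2) with no treated or contrasting group. The labels give the replicates as separate samples of the tissue but with a common donor entry, so part of the spread between them may be technical. Levels are TPM (a length-scaled relative abundance whose sum over all features listed is the same in every library), given as the value in each animal or as mean ± SD over both, and no p-value can be had from 1 group of 2 animals.

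Complexes II, III and IV pass electrons from succinate and ubiquinol to oxygen. Complexes III and IV pump protons while doing so, cytochrome c shuttles electrons between them, and complex V uses the proton gradient to make ATP. Complex II is wholly encoded in the nucleus, whereas the catalytic cores of complexes III and IV and the proton channel of complex V also hold subunits encoded by mitochondrial DNA. Several complex IV subunits exist as a form found in most tissues, often called the liver form, and a form restricted to heart and skeletal muscle.

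Each library held between 36952277 and 38754338 expected counts, of which members took 0.962% in replicate 1 and 1.07% in replicate 2. The tissue label matched its markers: all 5 skeletal fibre markers were present, with a sum of 77260 ± 2498 TPM. Of the 5 markers of heart, the other tissue rich in the muscle forms, Nppa and Myl7 had no count in either animal. The list summed to 8.39 and 16.6 TPM, nearly all of it Myh6. Myh6 shares sequence with other myosins, and whether reads from these were assigned to it was not tested. In a whole tissue, fewer cells of a type and less RNA per cell cannot be told apart.

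Nuclear subunit genes of complexes II to V were among the abundant messenger RNAs of this muscle. The 47 structural genes summed to 13929 TPM in replicate 1 and 16133 TPM in replicate 2, or 3.64% ± 0.255 of the TPM of nuclear protein-coding genes. Of the 66 members, 16 ranked among the top 100 nuclear protein-coding genes by mean TPM and 40 among the top 500. A mean of at least 100 TPM was reached by 39 of the 47 structural genes but by only 1 of the 16 assembly factors, Uqcc2. At the other end, 3 members had no count in either animal, namely Cox7b2, Cox8c and a second gene with the symbol Atp5o whose annotated span overlaps the first.

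**Figure D1:**
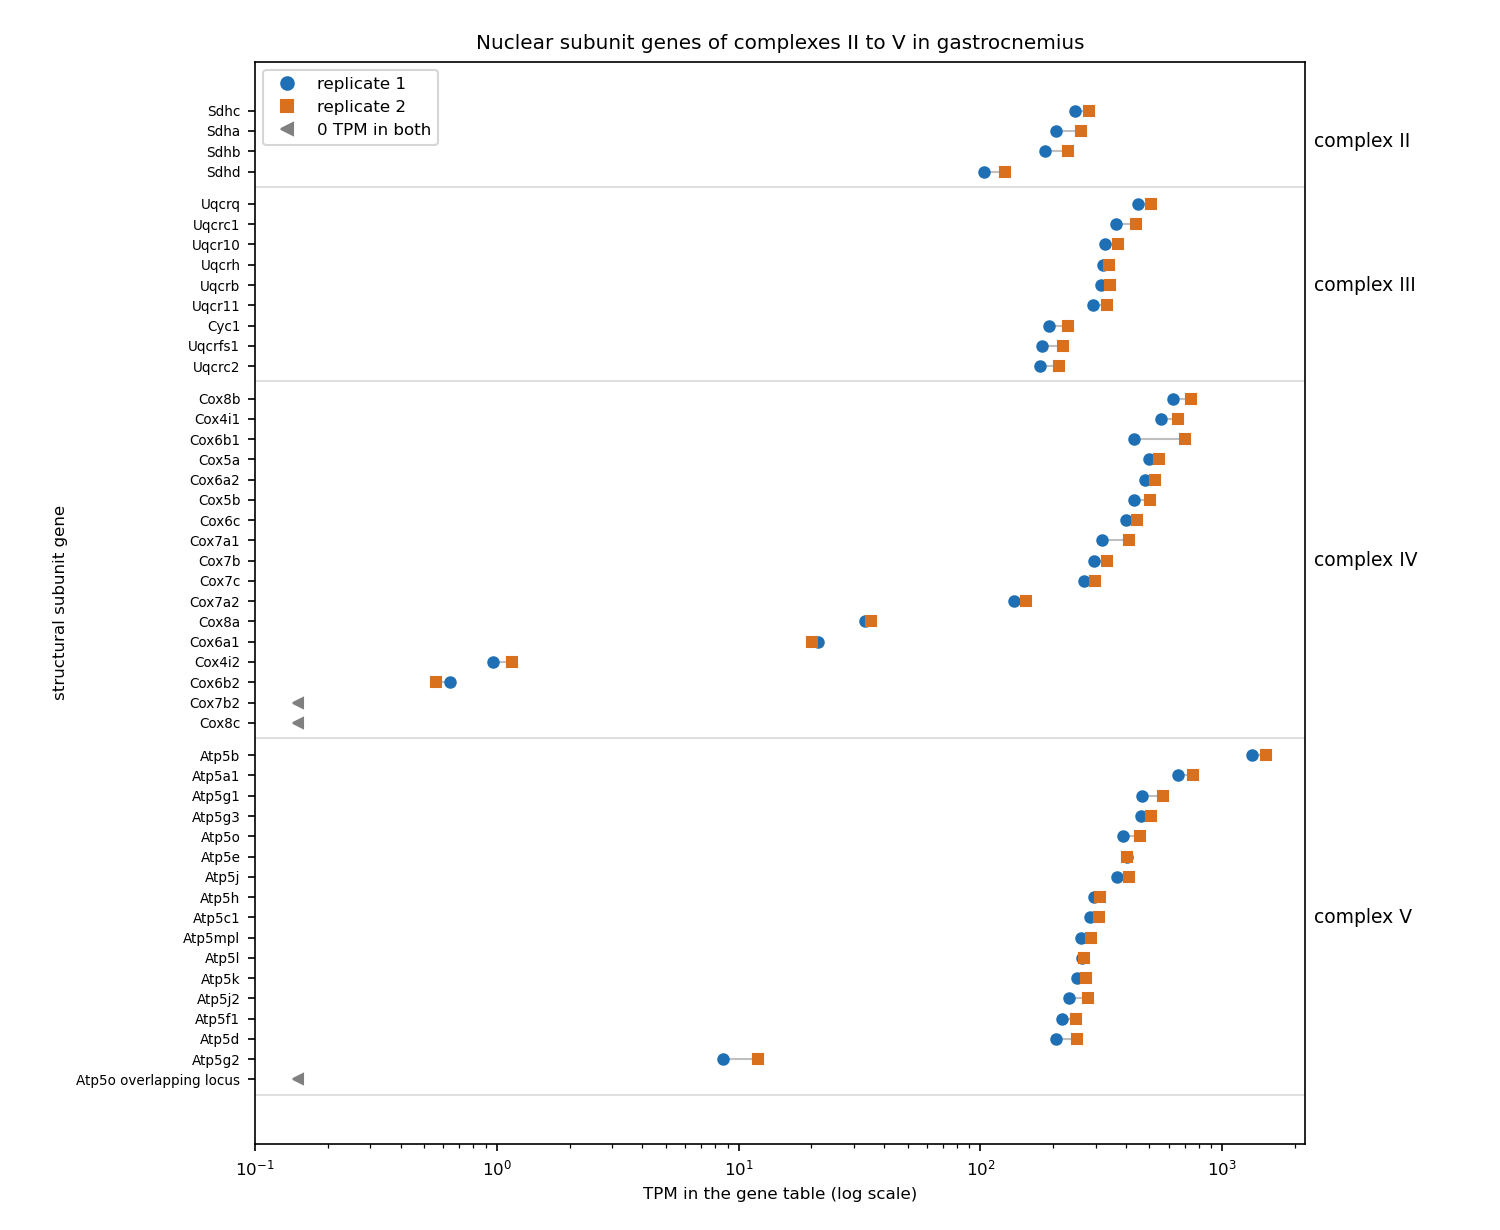
TPM of each of the 47 nuclear structural subunit genes (horizontal log axis), grouped by complex and ordered by mean, with circles for replicate 1 and squares for replicate 2. All subunits of complexes II and III lie above 100 TPM, while the low values of complexes IV and V belong to alternative isoforms and a second Atp5o gene. The low value of Atp5g2 is that of the gene table, and its mean in the second transcript table was 282 TPM. Genes at 0 TPM in both animals are drawn as triangles at the left edge.

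The complexes differed in how much of the subunit RNA they held. Complex II, with 4 genes, held 5.44% ± 0.179 of the summed subunit TPM, complex III, with 9 genes, 18.7% ± 0.136, complex IV, with 17 genes, 32.8% ± 0.783, and complex V, with 17 genes, 43.1% ± 0.826. The order was the same in both animals. Per gene the differences were smaller, since the median subunit gene stood at 220.2 ± 35.8 TPM in complex II, 328 ± 19.1 in complex III, 314 ± 29.0 in complex IV and 296 ± 17.4 in complex V. The medians of complexes III, IV and V stood in that order in both animals, at 315, 294 and 284 TPM in replicate 1 and 342, 335 and 308 TPM in replicate 2. The order depended on the quantification. In the second transcript table the median was highest in complex V (609 ± 43.7 TPM), against 522 ± 8.02 in complex III and 529 ± 39.3 in complex IV. Subunit levels within a complex were even for complexes II and III, where all 4 and all 9 genes lay within 2-fold of the median. In complex IV 9 of 17 and in complex V 13 of 17 did so.

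Complex II, or succinate dehydrogenase, links the citrate cycle to the chain. Its highest gene was Sdhc (mm10 chromosome 1, 171127165-171150603), a membrane anchor, at 246 TPM in replicate 1 and 280.0 TPM in replicate 2. Sdha, the flavoprotein that oxidises succinate, had 205 and 261 TPM, and Sdhb, the iron-sulfur subunit, had 185 and 230.2 TPM. The other anchor, Sdhd, was lowest at 104 and 127 TPM. All 4 genes were higher in replicate 2. The order within the complex was not the same in every table, since in the second transcript table (a separate quantification from the reads and an index) Sdhb was highest at 323 and 372 TPM and Sdhc had 200.4 and 221 TPM.

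Complex III, or cytochrome bc1, passes electrons from ubiquinol to cytochrome c. Uqcrq, a small subunit of the membrane region (chromosome 11, 53427922-53430831), was highest at 449 and 509 TPM in replicates 1 and 2. Uqcrc1, a core subunit, had 363 and 439 TPM, and Uqcr10, another small subunit, had 326 and 370.3 TPM. The lowest was the other core subunit, Uqcrc2, at 176 and 211 TPM. The core pair sits in the complex in equal numbers, yet Uqcrc1 was 2.07 ± 0.0109 times Uqcrc2 in the gene table and 1.66 ± 0.146 times in the second table. The electron-carrying subunits Cyc1 (cytochrome c1, 193 and 229 TPM) and Uqcrfs1 (the Rieske iron-sulfur protein, 179.6 and 219.8 TPM) lay near the bottom of the complex.

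Complex IV, or cytochrome c oxidase, reduces oxygen. Its highest gene was Cox8b, the muscle form of the smallest subunit, at 625 and 745 TPM (chromosome 7, 140898945-140900446). Cox4i1, a subunit needed for assembly and for regulation by ATP (chromosome 8, 120668222-120674207), had 557 and 655 TPM. Cox6b1, which faces the intermembrane space, had 433 and 704 TPM, a gap larger than in any other abundant subunit that is taken up below. The matrix-side subunits Cox5a and Cox5b had near-equal levels, with a ratio of 1.12 ± 0.0476, and Cox6c had 398 and 445 TPM.

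Complex V held the most abundant member of all. Atp5b, the catalytic beta subunit (chromosome 10, 128083273-128090391), had 1324 and 1516 TPM and ranked 23rd among nuclear protein-coding genes. Atp5a1, the alpha subunit that alternates with beta in the ring of the enzyme head, had 654 and 754 TPM. Beta and alpha are present in equal numbers in the enzyme, but Atp5b was 2.02 ± 0.0115 times Atp5a1, and 1.89 ± 0.0117 times in the second table. After these came Atp5g1 at 466 and 567 TPM, which encodes the c subunit of the rotor ring. Of the 15 genes of the complex at 100 TPM or more, the lowest was Atp5d, the delta subunit of the central stalk, at 205 and 249.75 TPM. The lowest gene of the complex with any count was Atp5g2, at 8.60 and 12.0 TPM in the gene table, a level that depended on the table, as given below.

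Of the partners encoded by mitochondrial DNA, mt-Co1, mt-Cytb and mt-Atp6 had more TPM than the nuclear subunit each was set against. In the gene table mt-Co2 had less than Cox4i1. The catalytic subunit mt-Co1 had 21.4 ± 0.766 times the TPM of Cox4i1 in the gene table and 21.04 ± 2.25 times in the second table. Cytochrome b, mt-Cytb, had 18.2 ± 0.0287 times the TPM of Uqcrc1, and 17.0 ± 1.33 times in the second table. For mt-Atp6, the channel subunit of complex V, the ratio to Atp5a1 was 6.13 ± 0.544 in the gene table and 16.5 ± 1.32 in the second. The 6 mitochondrially encoded subunits of complexes III to V summed to 29926 ± 4636 TPM. The highest was mt-Co1 (12993 ± 1955 TPM) and the lowest mt-Co2 (132 ± 55.8 TPM in the gene table, 969 and 1161 TPM in the second). The ratio of mt-Co2 to Cox4i1 was 0.225 ± 0.118 in the gene table and 1.08 ± 0.152 in the second. The second table listed mt-Atp8 at 0, so the sum is uncertain.

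The paired isoforms of complex IV leaned to the muscle form, to unequal degrees. Cox6a2, the muscle form of subunit 6a (chromosome 7, 128205435-128206387), had 478 TPM in replicate 1 and 526 TPM in replicate 2. Its liver form, Cox6a1 (chromosome 5, 115345642-115348981), had 21.3 and 20.1 TPM. The muscle form thus made up 96.0% ± 0.404 of the pair. For subunit 8 the muscle form Cox8b, given above, faced Cox8a (chromosome 19, 7215153-7217616) at 33.4 and 35.3 TPM. Cox8b made up 95.2% ± 0.390 of that pair, and Cox8c, known from testis, had no count, which allows up to 3 reads per library, or 0.0812 and 0.0774 CPM (reads scaled to library size). Of 5 testis markers 4 were also without a count.

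Subunit 7a was more mixed. Cox7a1, the muscle form (chromosome 7, 30184144-30186078), had 318 and 412 TPM, and Cox7a2, the liver form (chromosome 9, 79755361-79759878), had 138 and 154 TPM. Cox7a1 made up 71.2% ± 2.17 of the pair in the gene table and 54.1% ± 2.47 in the second table, so it was the larger in both animals and both tables but by different margins. The shares of Cox6a2 and Cox8b in the second table were 94.1% ± 0.865 and 94.4% ± 0.403.

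Of the families without a muscle form, 1 gene carried nearly all the RNA. Cox4i1 made up 99.8% ± 0.00323 of its pair with Cox4i2, the form induced by low oxygen in lung, which had 0.960 and 1.16 TPM. Cox6b1 made up 99.9% ± 0.0482 of its pair with Cox6b2, another gene known from testis, which rested on 8 and 6 expected counts (0.640 and 0.560 TPM). Cox7b had 294 and 335 TPM, while Cox7b2 had no count in either animal. Cox7a2l, whose product joins complexes III and IV into supercomplexes and which was left out of the 7a pair above, had 50.8 and 55.3 TPM.

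**Figure D2:**
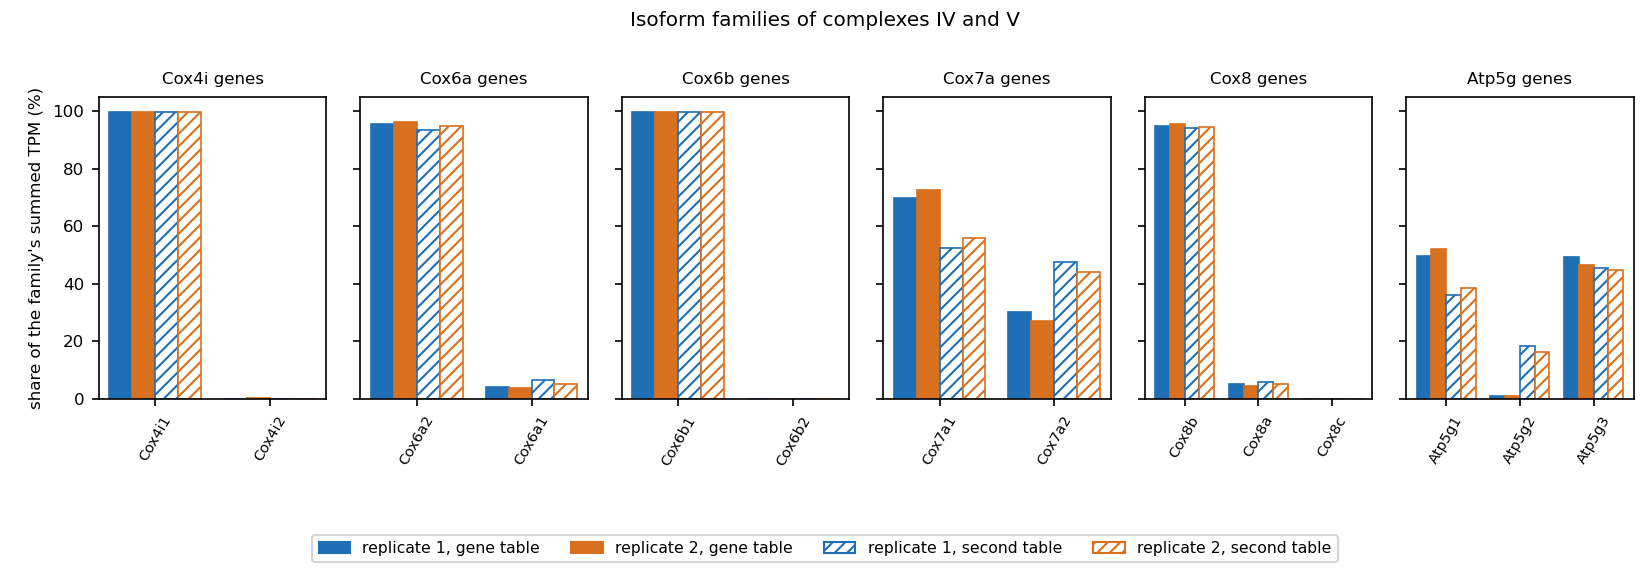
Share of the summed TPM of each isoform family (vertical axis, percent) held by each gene, with filled bars for the gene table and hatched bars for the second transcript table, in each replicate. Cox6a2 and Cox8b hold over 90% in all 4 readings, Cox7a1 between 52.4% and 72.8%, and Atp5g2 goes from about 1% to between 16.4% and 18.3% with the table.

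Promoter sequences, 300 bases each from 250 before to 50 after the gene start, were matched for 51 of the 65 symbols in the RefSeq table of build GRCm38.p6. The upstream 250 bases of the subunit 8 pair are printed because Cox8b exceeded Cox8a 18.7-fold in replicate 1 and 21.1-fold in replicate 2, and those of Cox6a1 because they hold letters of 3 of the motifs searched. Capitals mark every match on either strand that lies wholly within the printed bases. The letters searched were GCATGCGC for NRF1. For ETS factors, among them GABP, they were CCGGAAG. Those of the oestrogen-related receptors were AAGGTCA. AAGATGGC stood for YY1, and CAGCTG for an E-box, the site of myogenic factors. GGGCGGG was searched for Sp1, and the TATA box was searched as TATAAA. Each motif was searched on its own, so an overlap with another did not remove a match.
Cox8b, chr7:140900447-140900696, minus strand: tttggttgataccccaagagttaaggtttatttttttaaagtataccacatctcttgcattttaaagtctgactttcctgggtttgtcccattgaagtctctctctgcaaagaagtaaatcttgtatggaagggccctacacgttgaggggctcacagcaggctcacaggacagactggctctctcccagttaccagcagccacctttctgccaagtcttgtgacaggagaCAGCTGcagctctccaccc
Cox8a, chr19:7217617-7217866, minus strand: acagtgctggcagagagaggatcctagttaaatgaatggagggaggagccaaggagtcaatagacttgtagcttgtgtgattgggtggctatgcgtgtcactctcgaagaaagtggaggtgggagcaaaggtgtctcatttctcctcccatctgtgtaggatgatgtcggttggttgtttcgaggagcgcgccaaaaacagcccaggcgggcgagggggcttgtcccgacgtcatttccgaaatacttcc
Cox6a1, chr5:115348959-115349208, minus strand: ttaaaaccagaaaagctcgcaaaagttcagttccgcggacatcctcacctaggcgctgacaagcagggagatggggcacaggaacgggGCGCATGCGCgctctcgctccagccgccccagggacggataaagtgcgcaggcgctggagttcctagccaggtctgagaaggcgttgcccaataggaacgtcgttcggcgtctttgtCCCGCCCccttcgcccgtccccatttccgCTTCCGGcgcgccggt
The printed Cox8b stretch holds an E-box and a single CG dinucleotide. The printed Cox8a stretch holds 11 CG dinucleotides and that of Cox6a1 26. Over the whole 300 bases Cox8a also had an ETS match and Cox8b a TATA box match. Both lie beyond or across the end of the printed bases and so are not marked. Over the whole 300 bases Cox8b had 2 CG dinucleotides, the fewest of the 51 members, and Cox7a1 had 7, level with Uqcc1 and next after Cox7b, against a median of 19 over members and 7 over all 32851 promoter windows in the table.

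Letters of the ETS motif stood in 20 of 51 member promoters (39.2%) and in 8.86% of all 32851 windows. Those of NRF1 stood in 8 members (15.7%) against 2.71%, and 5 members had both, namely Sdhb, Uqcr11, Cox6a1, Atp5k and Atp5l. YY1 letters were found in 6 members (11.8%, all windows 2.75%), those of the oestrogen-related receptors in 6 (11.8%, all windows 4.72%) and those of Sp1 in 19 (37.3%, all windows 25.6%). The E-box was found in 3 (5.88%, all windows 16.3%) and the TATA box in 5 (9.80%, all windows 13.6%). These are letter matches only. The table of all windows also holds genes that do not encode protein, so the shares are not for like genes.

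The c subunit of complex V is made from 3 genes, Atp5g1, Atp5g2 and Atp5g3, whose import sequences differ while the mature protein is the same. Over the last 234 coding bases before the stop codon the 3 genes translated identically, and their bases agreed at 84.6% of positions between Atp5g1 and Atp5g2, at 78.6% between Atp5g1 and Atp5g3 and at 77.4% between Atp5g2 and Atp5g3. The last 60 coding bases are printed to show how reads can be told apart, with capitals at the 18 positions where the genes differ.
Atp5g1: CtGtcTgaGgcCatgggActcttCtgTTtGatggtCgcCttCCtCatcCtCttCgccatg
Atp5g2: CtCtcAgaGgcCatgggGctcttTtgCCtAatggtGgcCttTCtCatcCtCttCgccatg
Atp5g3: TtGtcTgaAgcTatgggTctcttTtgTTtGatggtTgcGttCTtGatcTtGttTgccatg
Atp5g1 (chromosome 11, 96068852-96075670) had 466 and 567 TPM and Atp5g3 (chromosome 2, 73908447-73911326) had 463 and 507 TPM. They held 50.9% ± 1.77 and 48.1% ± 1.90 of the family's TPM. In the second table Atp5g3 was the higher, at 731 and 741 TPM against 578 and 639.9 TPM for Atp5g1, so their order was not the same in both tables.

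Atp5g2 (chromosome 15, 102662864-102672352) was read very differently by the tables, with 8.60 and 12.0 TPM in the gene table and 293 and 270.5 TPM in the second. The pseudogene Gm10175 (chromosome 7, 23946646-23947290) is identical to the Atp5g2 transcript over 645 bases and contains its whole coding sequence. In the gene table Gm10175 was given 3077 and 3180 expected counts, against 171 and 239 for Atp5g2 itself, while the second table listed Gm10175 at 0. Reads from this stretch cannot be assigned to either gene by sequence. With the copy added, Atp5g2 stood at 187 and 196 TPM and the shares of the c subunit genes became 44.8% ± 1.92 for Atp5g1, 39.6% ± 1.01 for Atp5g3 and 15.6% ± 0.907 for Atp5g2.

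Other members had copies of this kind. The leading protein-coding transcript of 65 members, all but the second Atp5o gene, was searched against all annotated transcripts. Forms not annotated as protein-coding were not used in the search. At 98% identity or more over 150 or more bases on the same strand, 15 copies were found elsewhere in the genome for 9 members. Of these 15, 12 are annotated as processed pseudogenes, Gm10175 and Gm10012 as transcribed processed pseudogenes, and Gm10053 as protein-coding. A mean of at least 10 TPM was reached by 8 of them in the gene table and by 1 in the second table. Across members, the second table exceeded the gene table at least 2-fold, relative to the median nuclear protein-coding gene, for 4 of the 61 members with a mean of 50 expected counts or more, against 0.622% of nuclear protein-coding genes. These were Atp5g2, Cycs, Cox7c and Atp5e.

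Cycs, the somatic cytochrome c (chromosome 6, 50562563-50566538), had 36.5 and 40.4 TPM in the gene table but 515 and 532 TPM in the second. Gm10053 on chromosome 19, annotated as protein-coding, is 99.9% identical to it over 946 bases. It had 202 and 212 TPM in the gene table and 199 TPM in both animals in the second. A further copy, Gm10108, had 104 and 127 TPM in the gene table and was listed at 0 in the second. Added together, Cycs and its copies had 342 and 379 TPM in the gene table and 714 and 731 TPM in the second, so the gap between tables narrowed from 3.76 to 1.00 on the log2 scale. The tables also chose different forms of the gene: the coding transcript Cycs-202 held 92.8% of its TPM in the first transcript table and 8.80% in the second, where the retained-intron form Cycs-201 led. Cyct, the testis cytochrome c, had no count. Among cytochrome c partners Surf1, a complex IV assembly factor, was highest at 13.9 ± 0.672 TPM, Apaf1, which binds cytochrome c in apoptosis, was the lowest above 1 TPM at 1.02 ± 0.0424 TPM, and Hccs, which attaches haem to the cytochrome, had the largest log2 ratio between animals, 0.35.

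Cox7c, another small subunit of complex IV, had 268 and 297 TPM in the gene table and 916 and 982 TPM in the second. Its copies Gm12338 (identical over 192 bases) and Gm10012 had 708 and 797 TPM together in the gene table and were listed at 0 in the second. With them Cox7c reached 976 and 1094 TPM, and the log2 gap between tables went from 1.75 to -0.12. Each TPM in such a sum is scaled by the length of its own gene, and short copies weigh more. The Cox7c copies held only 40.1% and 40.6% of the joint expected counts in replicates 1 and 2. The sum therefore cannot be ranked against other complex IV genes, and the size of the remaining gap is uncertain. Atp5l, the g subunit of complex V, went from 262 and 267 TPM to 437 and 476 TPM when its copies were added. Atp5e, the epsilon subunit of the central stalk, had no such copy, yet its levels were 404 and 403 TPM in the gene table and 1357 and 1311 TPM in the second. Cox7a2 and Atp5j2, the f subunit of complex V, followed with log2 ratios of 1.52 and 1.43 between tables, and no copy of either passed the search. Effective length in the gene table was 323 bases for Atp5e in both animals, 452 and 451 for Atp5j2, and 531 and 504 for Cox7a2. The median log2 ratio between tables was 0.72 for the 24 members under 500 bases of effective length and 0.63 for the 37 others, and over nuclear protein-coding genes it was 0.70 for 195 short and 0.54 for 10744 longer ones. The part of gene length in the gap was not tested.

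**Figure D3:**
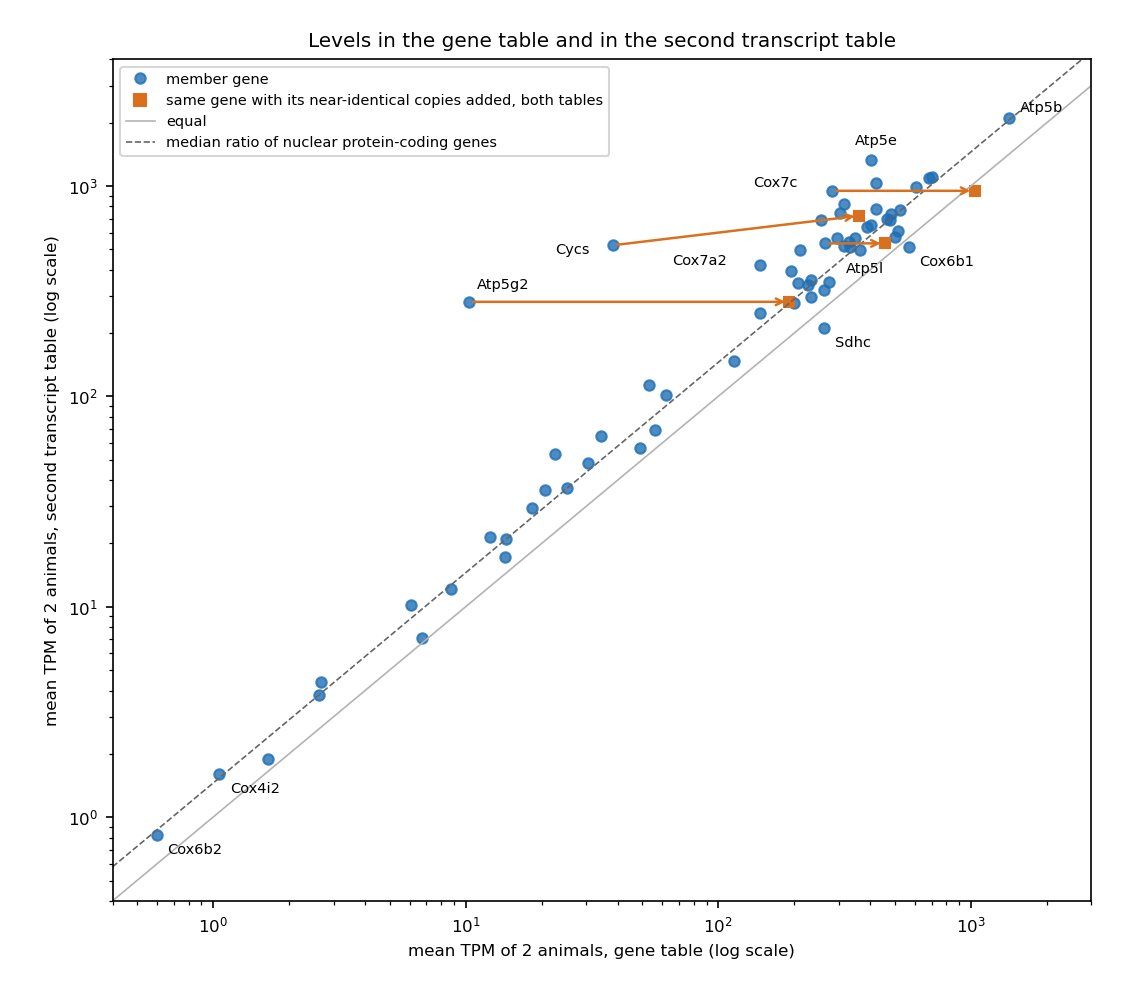
Mean TPM of each member with any count in the gene table (horizontal) and in the second transcript table (vertical), both on log axes, with the dashed line at the median ratio of nuclear protein-coding genes. Arrows lead from Atp5g2, Cycs, Cox7c and Atp5l to orange squares that include their near-identical copies, all of which lie closer to the dashed line than the gene alone, with that of Cox7c below the line of equality.

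The gamma subunit of complex V, the rotating shaft, is spliced in a tissue-dependent way, and Atp5c1 (chromosome 2, 10056016-10080510) carried the form without the alternative exon. This exon of 37 bases, exon 9 of 10 in Atp5c1-202, lies at chr2:10056770-10056806 on the minus strand (mm10). The junction is printed for both forms, with the 20 shared coding bases before it in lower case and the 10 bases after it in capitals.
Atp5c1-202 (exon 9 included): atctctggggctgctgctctGGATTAATGA
Atp5c1-201 (exon 9 skipped): atctctggggctgctgctctGTAAAGAAGA
With the exon the reading frame runs 7 bases past the junction, stop codon included, and without it 4, so the forms differ by 1 codon at the end of the protein. Of the reads assigned to the 3 forms that reach the last exon, 97.3% in replicate 1 (Wilson 95% interval 96.9 to 97.6) and 96.5% in replicate 2 (96.1 to 96.8) went to the form without exon 9. These intervals count every read assigned to the whole transcripts, not all of which tell the forms apart. They also leave out assignment error, so they are too narrow. The second table gave 95.5% and 94.1%, both below the intervals of the same replicates. Both tables therefore placed the skipped form above 94% in both animals, but these are assigned reads, since junction reads themselves are not in the tables. Over all forms of the gene Atp5c1-201 held 96.7% of TPM in the first table and 54.5% in the second, where Atp5c1-207 held 28.5% and Atp5c1-204 held 13.2%, and those forms do not reach the last exon.

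Assembly factors were expressed far below the subunits they help to build. The 16 factors summed to 474 ± 34.9 TPM. Uqcc2, which stabilises newly made cytochrome b (chromosome 17, 27122663-27133916), was highest at 141 and 152 TPM, and Sdhaf3, a complex II factor, was lowest at 1.59 and 1.71 TPM. Cox14 (60.4 and 64.4 TPM) and Cox17, a copper carrier (48.8 and 49.1 TPM), led those of complex IV. Outside the symbol rule, 31 further subunits and assembly factors were listed, from Ndufa4, now counted as a complex IV subunit (506.5 ± 37.9 TPM), down to the copper factor Sco1 (2.45 ± 0.297 TPM). The largest log2 ratio between animals in that list was that of Coa4, 0.61.

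Differences between the animals in these genes ran mostly in 1 direction. No member among the 61 with a mean of at least 50 expected counts differed 2-fold with separate credibility intervals, against 2.21% of 11632 genes tested. Those are the deposited intervals of TPM, which cover read assignment and counting only. At that share few of any 61 genes would be called, so the absence of calls is not particular to the members. For 37 of the 61 the intervals were apart with replicate 2 higher, where 9.5% of all genes were, and for 0 they were apart with replicate 2 lower, where 9.39% of all genes were. By TPM alone 56 of 61 were higher in replicate 2, against 50.5% of all genes, and by the second table's TPM 44 of 61 were, against 33.3%. Members took about 1% of all counts with 66 of 55536 genes, and the shares were not compared with genes of like depth. With 1 animal on each side, these differences have no replicate check.

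The size of the shift was small. Among 63 members with a mean of at least 0.5 TPM the median log2 ratio of replicate 2 over replicate 1 was 0.18 on the log2(TPM + 0.1) scale, when that of nuclear protein-coding genes was 0.01. The latter moved to -0.11 in the second table and -0.06 after rescaling over nuclear protein-coding genes, and the members moved with it, to 0.06 and 0.11. The distance between the medians stayed between 0.17 and 0.18 in all 6 scalings tried, edgeR and DESeq2 factors included. TPM, rescaled TPM and FPKM differ by a single factor per library, which moves both medians alike, and so do the edgeR and DESeq2 values. Only the second table is a separate quantification. The median was 0.30 in the 4 genes of complex II, 0.19 in complex III, 0.16 in complex IV, 0.18 in complex V and 0.10 in the assembly factors. In the second table these medians were 0.15, 0.05, 0.06, 0.09 and 0.03.

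Direction depended on the table for 13 of these 63 members, all of them higher in replicate 2 in the gene table and lower in the second. Among them were Uqcrq (0.18 and -0.08), Cox4i1 (0.24 and -0.03) and Cox6a2 (0.14 and -0.02). The median of nuclear protein-coding genes also fell, from 0.01 in the gene table to -0.11 in the second. Of the 63 members, 57 lay above that median in each table, and the members just named did so in both.

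Single members with a mean of at least 1 TPM stood apart at both ends. Cox6b1 (chromosome 7, 30616861-30626151) had the largest log2 ratio, 0.70, but its expected counts were 6220 and 7418, a log2 ratio of 0.19 in CPM, and the second table gave 0.06. Its effective length in the gene table was 455 bases in replicate 1 and 332 in replicate 2. The form Cox6b1-201 held 75.5% and 27.7% of the gene's TPM there, and 94.3% and 99.8% in the second table. The high ratio was thus present in TPM of the gene table and absent from the counts and the second table. The next were Uqcc1, a complex III assembly factor (45.9 and 66.4 TPM, log2 ratio 0.53), Atp5g2 (0.48, but -0.11 in the second table), Cox10, which makes haem O for complex IV (12.0 and 16.7 TPM, 0.47), and Cox7a1 (0.38, and 0.34 in the second table). The intervals of Uqcc1, Cox10 and Cox7a1 did not overlap between the animals.

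Among the same members the lowest ratio was that of Cox18, which inserts part of mt-Co2 into the membrane, at 3.12 and 2.25 TPM (log2 ratio -0.45). Cox19, a copper-handling factor, followed at 24.0 and 21.4 TPM (-0.16). Cox6a1 (-0.08), Cox11 (-0.01 to 2 decimals, with 8.79 and 8.70 TPM) and Atp5e (0.00, with 404 and 403 TPM) came next. The gene-table intervals of all 5 overlapped between the animals, so no difference in that table exceeded them. In the second table the ratios were -0.39 for Cox18, -0.33 for Cox19, -0.34 for Cox6a1, -0.06 for Cox11 and -0.05 for Atp5e. The median of nuclear protein-coding genes there was -0.11. The muscle share of the Cox6a pair was 95.7% in replicate 1 and 96.3% in replicate 2. The shares of Cox7a1 (69.7% and 72.8%) and of Cox8b (94.9% and 95.5%) were also larger in replicate 2.

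**Figure D4:**
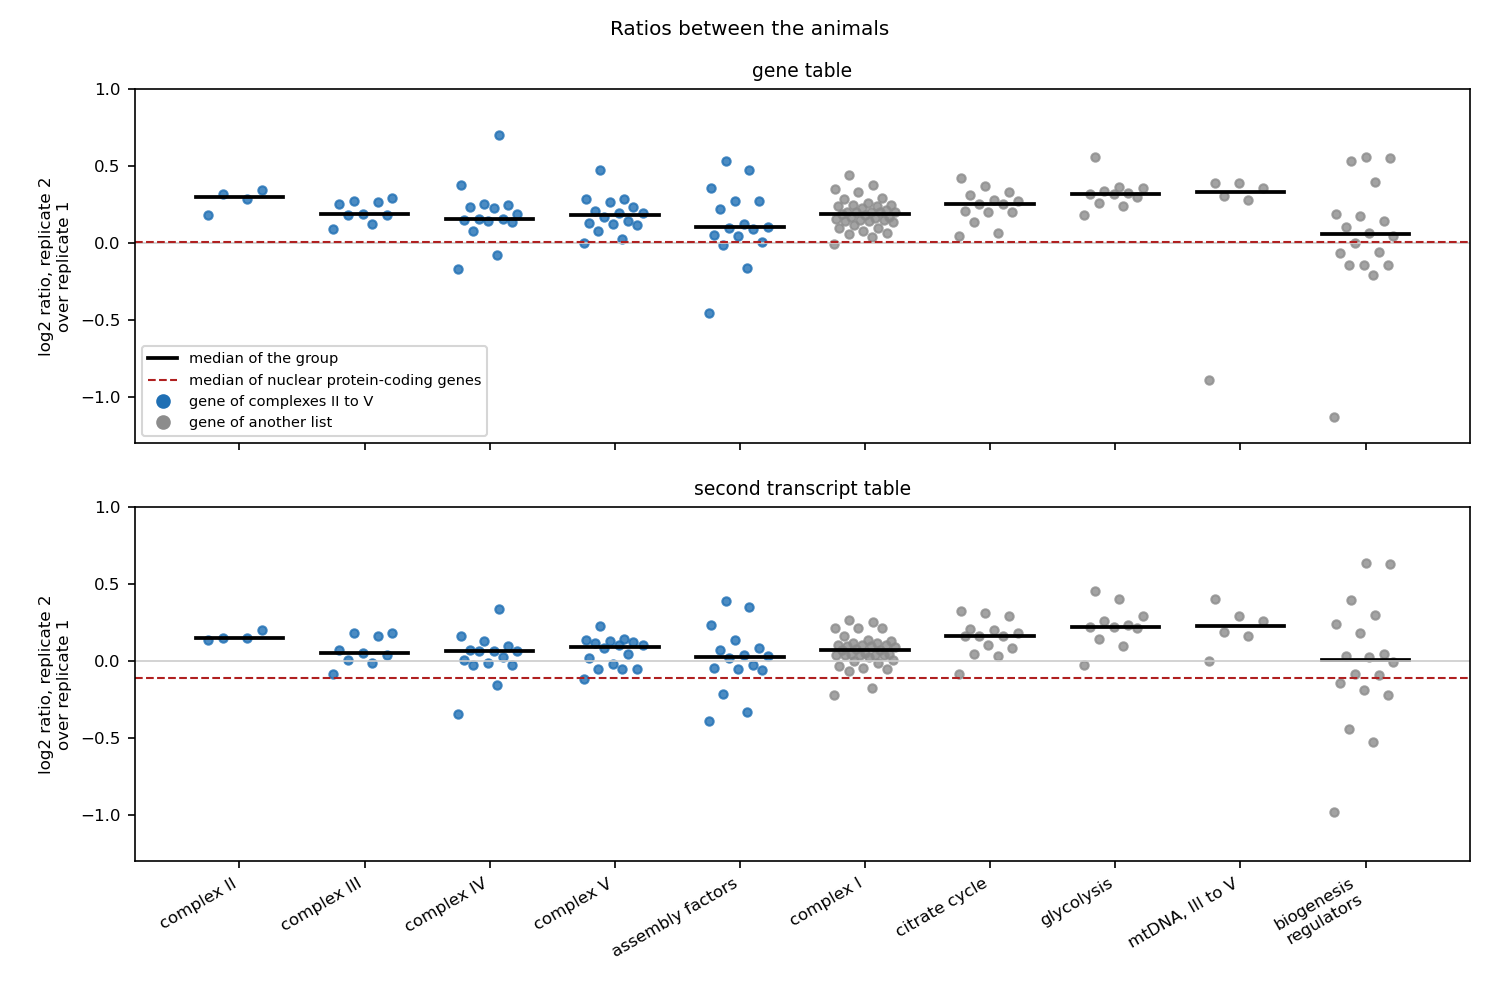
Log2 ratio of replicate 2 over replicate 1 for each gene (vertical axis) by gene group, in the gene table (upper panel) and the second transcript table (lower panel), with black bars at group medians and a dashed line at the median of nuclear protein-coding genes. Medians of complexes II to V lie above the dashed line in both panels, as do those of complex I, the citrate cycle and glycolysis, and mt-Atp8, listed at 0 in the second table, is drawn at 0 there.

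Other genes of energy metabolism are given for comparison. Of 37 nuclear complex I subunits, 36 were higher in replicate 2 (30 in the second table) and the median log2 ratio was 0.19, from a list running from Ndufc1 (426 ± 38.3 TPM) to Ndufb3 (58.8 ± 4.97 TPM), with Ndufa10 farthest at 0.44. All 14 citrate cycle genes were higher in the gene table and 13 in the second, at a median of 0.25 in the former. Suclg2, a subunit of succinyl-CoA synthetase, was the lowest of them (15.2 ± 0.354 TPM) and Idh2, an isocitrate dehydrogenase, had the largest ratio, 0.42. The 11 glycolysis genes, which work outside the mitochondrion, were all higher in the gene table and 10 in the second, at a median of 0.32 in the former, from Aldoa (9664 ± 1693 TPM) to Hk2 (77.2 ± 9.74 TPM), with Pfkm farthest at 0.56. None of these genes passed the 2-fold criterion. The 6 mitochondrially encoded subunits of complexes III to V had a median of 0.33, and 5 were higher in replicate 2. The exception, mt-Co2, had -0.89 in the gene table and 0.26 in the second table.

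Regulators of mitochondrial gene expression were split. Of 18 listed, 10 were higher and 8 lower in replicate 2, with a median log2 ratio of 0.06, and 9 were higher in the second table. The coactivator Ppargc1a, a driver of respiratory gene expression in muscle, was the only one past the 2-fold criterion, at 28.6 TPM in replicate 1 and 13.0 TPM in replicate 2 (log2 ratio -1.13, and -0.98 in the second table). Mef2c, a muscle transcription factor, was the highest of the list (132 ± 3.09 TPM) and Esrrb the lowest (0.99 ± 0.283 TPM). The receptor partners Esrra (25.9 and 34.2 TPM, log2 ratio 0.40) and Esrrg (5.05 and 7.5 TPM, 0.56), named after their values were seen, had the higher value in replicate 2.

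The make-up of the tissue samples also differed. Slow or oxidative fibre markers were higher in replicate 2 for 6 of 6 genes, and for 5 in the second table (median log2 ratio 0.73, sum 1625 and 1992 TPM), and 3 of them, Myh7, Tnnt1 and Tnni1, passed the 2-fold criterion. None of the 6 was at 0. Schwann cell markers were lower for 5 of 5 (sum 451 and 103 TPM) and fibroblast markers for 5 of 5 (sum 1231 and 582 TPM), as were tendon markers for 5 of 5 (sum 138 and 94.6 TPM), and none of these was at 0. Macrophage markers were lower for 4 of 4 (sum 17.6 and 10.8 TPM), and none was past the 2-fold criterion. Adipocyte markers summed to 104.5 and 127 TPM, with Adipoq at a log2 ratio of 0.80, Cfd at 0.82 and Lep at -1.08, and the fast markers to 23969 and 24492 TPM, with Myh1 at -0.63. Among brown adipocyte markers Ucp1 and Elovl3 were at 0 in both animals, and the list's sum of 29.7 and 14.6 TPM was nearly all Ppargc1a. The part of fibre type or tissue make-up in the members' ratios was not tested.

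Some members were assigned mostly to forms that do not encode the protein. Of 62 members with a mean of at least 1 TPM, 44 had the same leading transcript in both transcript tables, and the leading form was not annotated as protein-coding for 7 in the first and 12 in the second. Cox7b is an example in both: its retained-intron form Cox7b-203 held 51.9% of the TPM in the first table and 99.8% in the second. For Atp5k, the e subunit, the coding form Atp5k-201 held 97.6% in the first table and 3.59% in the second. For Cox4i1 the tables agree on a coding form but not on which, with Cox4i1-201 at 98.6% in the first and Cox4i1-205 at 81.3% in the second. At gene level the tables differed by a log2 ratio of 0.70 for Cox4i1, against a median of 0.54 over nuclear protein-coding genes.

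Members were spread over 19 chromosomes. Chromosome 7 held 7 of them, the most, among them the muscle forms Cox6a2, Cox7a1 and Cox8b. Cox7a1 and the complex II assembly factor Sdhaf1 lie 135328 bases apart there, and Sdhaf1 and Cox6b1 292966 bases apart.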

How the data were processed

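Total RNA of the gastrocnemius of 2 mice was sequenced as stranded, ribosomal-RNA-reduced libraries with ERCC spike-ins, per the labels. The authors deposited, for each library, a gene table and a first transcript table made from transcriptome alignments, and a second transcript table made from the reads and an index, per the file headers and the notes deposited beside them (mm10, GENCODE M21). Names of the aligner and quantification programs were not given in the sources used here. Expected counts as deposited by the authors are estimated reads per feature, the deposited TPM and FPKM are length-scaled by the authors over all features listed, and the deposited upper interval bound is a score on the TPM scale. The percent of a gene held by each transcript, also deposited by the authors, was recomputed from transcript TPM. Stranded counting is not stated in the sources used here.

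Genes were matched to the M21 annotation by identifier. Ratios are log2((TPM + 0.1) of replicate 2 over replicate 1); for low genes this scale shrinks a ratio. A gene was called different at a mean expected count of 50, a 2-fold ratio and non-overlapping deposited intervals. Depth was 36952277 and 38754338 expected counts. Intervals and floors cover counting error only. A chi-square of 35.1 per degree of freedom over 14984 genes showed that the libraries were not 1 library deposited in duplicate. The calling rule was tested on simulated data. Copies were searched with blastn 2.17.0 (megablast); sizes were rescaled with edgeR 4.0.16 and DESeq2 1.42.0 factors as alternatives on rounded expected counts, with no test, since 1 group of 2 animals allows none. Other alternatives were the second transcript table, posterior mean TPM, FPKM, rescaled TPM, pseudocounts of 0.01 and 1, other filters, and each replicate alone. The values given in full are the 3 highest and the lowest structural genes of each complex, all isoform families, the 5 highest and 5 lowest ratios at a mean of at least 1 TPM, the 6 largest gaps between tables, members under 1 TPM, and the highest, lowest and farthest gene of each comparison list. For the citrate cycle list, 1 of these genes is not reported here. Members and lists were chosen with earlier results of these data known.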

Additional observations from a re-analysis of the deposited data

How the results depend on the processing

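Direction between the animals changed in the second transcript table for 13 of 63 members, among them Atp5g2 (0.48 to -0.11), and Atp5g3 exceeded Atp5g1. The summed TPM of the structural subunits was 25579 in the second transcript table, 36413.5 after rescaling TPM over nuclear protein-coding genes and 12546 in FPKM, so it is a level only within its scale, and it ran from 13929 to 16133 with 1 replicate left out. In the second transcript table the shares were 3.91% for complex II, 18.1% for complex III and 44.9% for complex V, those of the muscle forms were 94.1% for Cox6a2, 54.1% for Cox7a1 and 94.4% for Cox8b, and Atp5g1 held 37.4% of the c subunit genes. With copies counted with their member, an alternative chosen after seeing the data, the shares were 5.02% for complex II, 17.2% for complex III and 34.9% for complex IV, and Atp5g1 held 44.8%. Whether the gap between tables comes from effective length, copies or transcript models was not tested. Copies were only added by TPM, each scaled by the length of its own gene. The median log2 ratio lay between 0.06 and 0.20 over all alternatives and could not be computed with a replicate left out. The count of members past the 2-fold criterion was 0 under each alternative. The second transcript table moved 64 levels of single members and shares of Atp5c1 forms by more than the spread between the animals, and left 3 within it. Its TPM ran higher in general, with a median log2 ratio of 0.54 to the gene table over nuclear protein-coding genes. Moved levels therefore include this change of scale. With 1 animal on each side a ratio has no replicate check, and low members such as Cox6b2 and Cox4i2 rest on few reads (6 to 23 expected counts).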
